A study of Bos taurus with 6 samples.

Results

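CD55, DPYSL3, MYO10, PTPRG and THBD are 5 of 11626 named genes measured in bovine articular cartilage, and each encodes a protein of the cell surface or of the machinery by which cells move. They were chosen from the deposited log2 values themselves, in that both middle-zone arrays read at least 1 log2 unit below every superficial-zone and deep-zone array on the gene's brightest probeset. That rule alone did not single out these 5, as 20 named genes met it, 15 of them other genes. The theme that the 5 share is part of the choice and not a result of the values. The array carries 6 of its 24016 probesets for them, as PTPRG has a second, dimmer one and the other 4 genes have 1 each. The cartilage was labelled normal (grade 1). It came from the weight-bearing femoral condyles of the knees of 2 untreated, skeletally mature cattle of 14 to 30 months (bov1 and bov4). Their breed and sex are not given in the sources used here. Sections of 50 µm were cut from the joint surface down to the calcified cartilage, and each animal gave 1 array for the middle zone (MZ, the middle 40% of the sections), 1 for the superficial zone (SZ, the upper 10%) and 1 for the deep zone (DZ, the lower 30%). About 200 µm between neighbouring zones was discarded, and 5 ng of total RNA per zone was amplified before labelling. Whether the sections of a zone came from 1 core or several is not stated, and no sorting of cells is described.

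Chondrocytes sit singly or in small groups in a dense matrix, and their shape and surroundings change with depth. Superficial cells are flattened and border the joint fluid, middle-zone cells are rounded, and deep-zone cells stand in columns above calcified cartilage and bone. At the surface of many cells CD55 (decay-accelerating factor) breaks up the convertases that drive complement, and thrombomodulin, the product of THBD, binds thrombin and turns it towards the activation of protein C. PTPRG is a receptor-type tyrosine phosphatase that spans the membrane. MYO10 is an unconventional myosin that carries cargo to the tips of filopodia, and DPYSL3 (CRMP4) belongs to the collapsin response mediators, which link semaphorin signals to the cytoskeleton.

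The values are log2 expression per probeset, already normalised between arrays by the authors. No detection calls were used, so the lower quartile of each array, 2.71 to 2.87, served as a guide to the dim end of the scale. The arrays had medians of 4.42 to 4.46, and COL2A1, the collagen of the cartilage fibril network, read 13.69 to 14.15 on all 6. In tissue of mixed cells, fewer cells of a type and less RNA per cell cannot be told apart. The DZ arrays carry another code in their descriptions than the MZ and SZ arrays, which share one, so DZ and that code cannot be told apart. Zones were compared with 1 limma model over the 6 arrays with a block for animal. A difference is the first-named zone minus the second on the log2 scale, given with its standard error (SE) from the model. An adjusted p under 0.05 was called. MZ against SZ and MZ against DZ chose the 5 genes and are given for them without a test.

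CD55, the complement regulator at the cell surface, had its lowest values in MZ and its highest in SZ. It read 2.03 and 2.28 on the MZ arrays of bov1 and bov4, 5.29 and 5.89 on the SZ arrays, and 4.60 and 3.53 on the DZ arrays. The 3 zones did not overlap, and SZ stood highest in both animals. Both MZ values lay under the lower quartile of their arrays, so the differences of -3.44 (SE 0.42) to SZ and -1.92 (SE 0.42) to DZ are uncertain in size and no fold is given. The difference to DZ was -2.58 in bov1 and -1.25 in bov4, as the DZ array of bov4 was the lowest of the 4 outer arrays. Without the DZ array of bov1 the MZ minus DZ value was -1.16, and without that of bov4 it was -2.67.

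THBD, the thrombin-binding receptor of the protein C pathway, read 2.57 and 2.43 in MZ, 5.16 and 5.08 in SZ, and 4.40 and 5.06 in DZ, in the order bov1 and bov4. Its MZ arrays differed from each other by 0.15 and its SZ arrays by 0.08, and both MZ values were again under the lower quartile. MZ stood -2.62 (SE 0.29) from SZ and -2.23 (SE 0.29) from DZ. The MZ minus SZ value was almost the same in both animals, at -2.59 in bov1 and -2.65 in bov4. In means, THBD was at 2.50 ± 0.10 in MZ, 5.12 ± 0.06 in SZ and 4.73 ± 0.47 in DZ (SD, n = 2 each).

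PTPRG is the one gene of the 5 with a second probeset. Its brighter probeset read 4.56 and 4.29 in MZ, 6.72 and 6.27 in SZ, and 6.57 and 7.19 in DZ. All 6 values were more than 1 log2 unit above the lower quartile, and the brighter probeset was 4.21-fold lower in MZ than in SZ (-2.07, SE 0.32) and 5.49-fold lower than in DZ (-2.46, SE 0.32). The dimmer probeset, which had no part in the choice but reports on the same RNA, read 4.10 and 3.67 in MZ, 4.77 and 4.69 in SZ, and 5.75 and 5.40 in DZ. It kept MZ lowest, with smaller differences of -0.84 (SE 0.23) to SZ and -1.69 (SE 0.23) to DZ and a gap of 0.59 between the higher MZ array and the lowest outer one. The probesets differed in the outer zones, since SZ and DZ overlapped on the brighter one and SZ lay below DZ on the dimmer one.

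Of the motility genes, DPYSL3, the collapsin response mediator, read 2.95 and 3.87 in MZ, 6.32 and 6.99 in SZ, and 6.14 and 6.70 in DZ. Its gap between the higher MZ array and the lowest outer array was the widest of the 5 genes, at 2.27, and the outer zones overlapped. MZ differed from SZ by -3.25 (SE 0.23) and from DZ by -3.01 (SE 0.23). The MZ array of bov1 lay just above its lower quartile of 2.80, so no fold is given.

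MYO10, the filopodial myosin, read 7.33 and 6.30 in MZ, 9.06 and 8.87 in SZ, and 8.75 and 8.42 in DZ. No array read it near the dim end. In MZ it was 4.45-fold lower than in SZ (-2.15, SE 0.29) and 3.43-fold lower than in DZ (-1.78, SE 0.29). Its MZ arrays stood 1.03 apart, the widest spread between animals of any zone except the 1.07 of CD55 in DZ on these probesets, and the bov1 array was the higher. The MZ minus SZ value was -1.73 in bov1 and -2.58 in bov4.

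**Figure D1:**
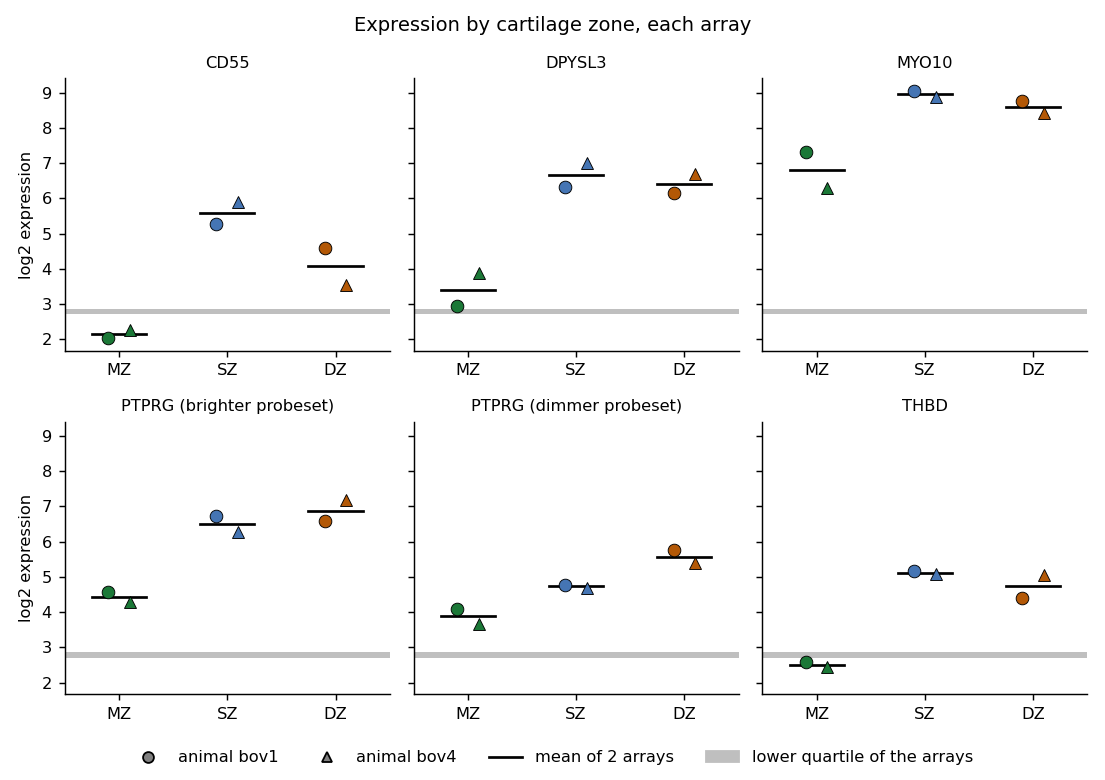
Log2 expression of the 5 genes on each array by zone, with PTPRG shown for both probesets. Circles are bov1, triangles bov4, bars the mean of 2 arrays, and the grey band the range of the arrays' lower quartiles (2.71 to 2.87). Both MZ points lie below all SZ and DZ points in every panel, which the choice of genes required for all but the dimmer PTPRG probeset. They lie below the grey band for CD55 and THBD and far above it for MYO10.

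SZ against DZ was not used to choose the genes and was tested. None of the 5 was called (0 of 5, against 2.75% of all 24016 probesets), and 1 of the 5, CD55, had an unadjusted limma p under 0.05, against 17.6% of all probesets. CD55 differed by 1.52 (SE 0.42, 95% interval 0.50 to 2.54, limma adjusted p = 0.136), with values of 0.68 in bov1 and 2.36 in bov4. MYO10 differed by 0.38 (interval -0.32 to 1.07, adjusted p = 0.551) and DPYSL3 by 0.23 (-0.33 to 0.80, adjusted p = 0.653). THBD differed by 0.39 (-0.30 to 1.09, adjusted p = 0.531). The intervals of these 3 genes hold 0 and end near 1 log2 unit, so a 2-fold difference between the outer zones in favour of SZ was within or at the edge of what the arrays allow for MYO10 and THBD, and outside it for DPYSL3. For PTPRG the brighter probeset differed by -0.38 (-1.16 to 0.39, adjusted p = 0.588) and the dimmer one by -0.85 (-1.42 to -0.29, adjusted p = 0.134). Over the 5 genes the median SZ minus DZ value was 0.38, beside 0.06 over all probesets. The SZ and DZ arrays did not overlap for 3 of the 5 genes (CD55, MYO10 and THBD, the last by 0.02), while they did not overlap for 46.0% of all named genes.

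The animals were compared in the same model, and the choice of genes did not set them against each other. It did require the arrays of both animals to meet the gap, which disfavours genes with a large difference between animals. None of the 5 was called between bov4 and bov1 (0 of 5, against 0.0458% of all probesets). DPYSL3 had an unadjusted p under 0.05, as did 12.1% of all probesets. It read higher in bov4 in all 3 zones, by 0.92 in MZ, 0.68 in SZ and 0.55 in DZ (0.72, SE 0.19, limma adjusted p = 0.276). MYO10 read lower in bov4 in all 3 zones, with a model value of -0.51 (SE 0.23, adjusted p = 0.456). For CD55, PTPRG and THBD the animals differed by -0.07, -0.03 and 0.14, with adjusted p of 0.957, 0.975 and 0.868, and the sign was not the same in every zone.

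**Figure D2:**
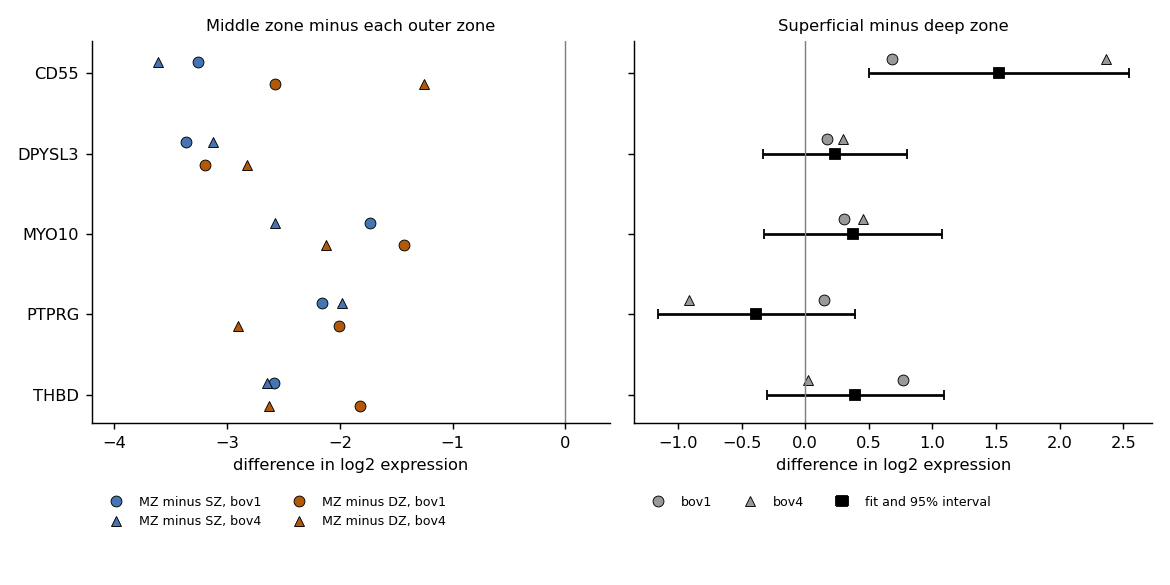
Differences in log2 expression between zones for the 5 genes on their brightest probesets. Left, MZ minus SZ (blue) and MZ minus DZ (orange) in each animal, all below -1, which the choice of genes required. Right, SZ minus DZ with the model's 95% interval (black) and each animal's value (grey). Of the 5, CD55 has an interval that leaves out 0, from 0.50 to 2.54, and PTPRG has animals on both sides of 0.

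The threshold that chose the genes was met by 20 of 11626 named genes (0.172%), and by 30 of 24016 probesets (0.125%). With no minimum gap, both MZ arrays lay below all outer arrays for 4.93% of named genes. These shares are given as description, since the rule used that contrast. The opposite pattern, both MZ arrays at least 1 log2 unit above all outer arrays, was met by 0 probesets. Of the 5 genes, MYO10 lay nearest the threshold with a gap of 1.10, then CD55 with 1.25, PTPRG with 1.71, THBD with 1.82 and DPYSL3 with 2.27. Just inside it among other genes was IFITM3, an interferon-induced membrane protein, at 1.01. Just outside lay SVIL (supervillin, an actin-binding membrane protein) at 0.95, IFI6 at 0.95 and TAGLN2 (transgelin 2) at 0.88.

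In the dCHIP matrix, the other deposited table of the same arrays, MZ also lay below all outer arrays for each of the 5 genes, but 3 of the 5 kept a gap of at least 1. The gaps there were 2.20 for THBD, 2.03 for DPYSL3, 1.34 for CD55, 0.90 for MYO10 and 0.78 for PTPRG. PTPRG read 5.29 and 4.75 in MZ, 6.59 and 6.08 in SZ, and 6.93 and 7.10 in DZ in that table. Its MZ minus SZ value was thus -1.31, against -2.07 in the main values. Of the 20 genes, 11 kept a gap of 1, and in the dCHIP matrix alone 0.12% of named genes had one. IFITM3 had a gap of 0.31 there.

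Other genes with wide gaps, most like the 5 by a fixed rule, follow. TGM2, the cross-linking enzyme transglutaminase 2, had a gap of 3.32, reading 2.16 and 2.65 in MZ, 9.52 and 6.71 in SZ, and 6.80 and 5.97 in DZ. COL1A2, a chain of bone and fibrous collagen I, had 2.24, but 0.06 in the dCHIP matrix. PDGFC, a platelet-derived growth factor, had 2.12 and NRP1 (neuropilin 1), a co-receptor of semaphorins and VEGF, had 1.91. The interferon-induced IFITM1 was at 1.47, the fatty acid-binding FABP4 at 1.43, the matrix protein ECM1 at 1.43, the phospholipase PLCB1 at 1.39 and the hyaluronan receptor CD44 at 1.36. In the dCHIP matrix ECM1, PLCB1 and CD44 also fell short of 1, at 0.94, 0.71 and 0.59. TGM2, PDGFC, NRP1, IFITM1 and FABP4 kept a gap of at least 1 there. In COL1A2, CD44 and FABP4 the DZ arrays read well above SZ, with SZ minus DZ values of -5.87, -2.61 and -2.28. For TGM2, NRP1 and CD44 both MZ values lay under the lower quartile, so their gaps are uncertain in size. Dimmer probesets fell short of a gap of 1 for COL1A2 (0.97), IFITM1 (0.53 and -0.22) and FABP4 (-0.30).

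**Figure D3:**
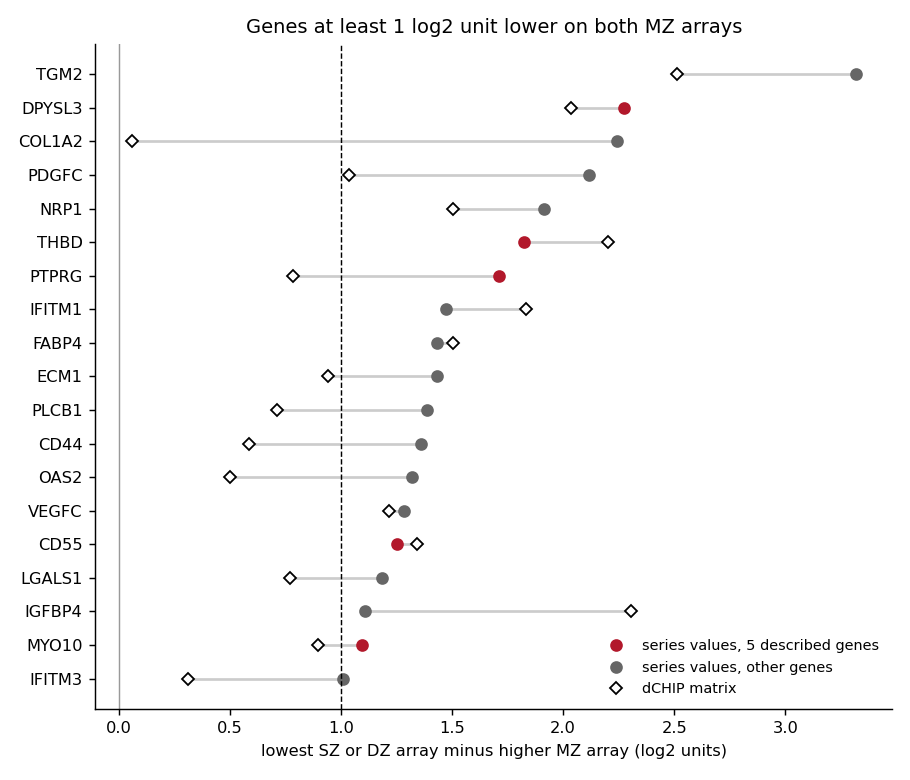
The gap between the higher MZ array and the lowest SZ or DZ array, in log2 units, for named genes at or above 1 (dashed line) in the main values. Filled circles are the main values, red for the 5 genes described here, and open diamonds the dCHIP matrix. PTPRG and MYO10 fall to 0.78 and 0.90 in the dCHIP matrix, and THBD and CD55 move up to 2.20 and 1.34.

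Likeness was also measured as Pearson's r over the 6 arrays among the 1081 other named genes whose values span at least 2 log2 units. It is a description, since 3 zones of 2 animals are few points. PDGFC came first for PTPRG (r = 0.983) and second for THBD (0.977), where SPRY1, an inhibitor of growth factor signalling, came first (0.979). NRP1 was second for PTPRG (0.967), and SVIL followed for PTPRG (0.947) and THBD (0.944). DPYSL3 was followed most closely by the lymphatic growth factor VEGFC (0.951), the guidance receptor ROBO2 (0.935) and OAS2 (0.932). For MYO10 they were LXN (0.921), SPRY1 (0.915) and MAL2 (0.914), and for CD55 they included ANKRD50 (0.927) and RGS2 (0.907). Both read higher in SZ than in DZ in both animals, as CD55 did.

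The relatives and partners of the 5 genes, taken from 8 lists, were counted in the same comparisons. Of 131 measured list genes other than the 5, 0 were called between MZ and SZ by limma (0.0416% of all probesets were), and 23 had an unadjusted p under 0.05, against 8.84% of all probesets. Between MZ and DZ, 9 of 131 were lower in MZ and 0 higher, against 0.612% and 0.0916% of all probesets (0.704% either way), and 38 had an unadjusted p under 0.05, against 9.93%. Between SZ and DZ, 14 were lower and 2 higher in SZ, against 1.72% and 1.03%, and 52 (39.7%) had an unadjusted p under 0.05, against 17.6%. The median MZ minus SZ value of the 131 was -0.08 and the median MZ minus DZ value -0.18, beside -0.00234 and 0.06 over all probesets. Of the 131, 3 met the threshold that chose the 5, NRP1 and CD44 among them, though CD44 fell short of it in the dCHIP matrix (0.59).

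Around CD55, the other membrane regulators of complement showed no MZ gap of 1. CD46, the cofactor for cleavage of C3b and C4b, was at 8.84 ± 0.07 in MZ, 9.12 ± 0.18 in SZ and 8.82 ± 0.08 in DZ (SD, n = 2 each). CD59, which blocks the membrane attack complex, read 8.37 and 8.64 in MZ, 9.32 and 8.84 in SZ, and 9.73 and 9.49 in DZ, with MZ lowest by a gap of 0.20. Neither was called in any zone comparison, with limma adjusted p from 0.22 to 0.99. Of 11 measured complement regulators 1 was called, CLU (clusterin), higher in SZ than in DZ by 4.09 (1.03% of all probesets were called higher). The call was lost without the block (adjusted p = 0.130), without the SZ array of bov1 (0.0555) and without the DZ array of bov1 (0.0943). ADGRE5 (CD97), the adhesion receptor that binds CD55, read 4.09 and 3.84 in MZ, 4.46 and 3.90 in SZ, and 5.04 and 5.20 in DZ. Of its list of 16 partners and GPI-anchored proteins, 2 were lower in MZ than in DZ, the phosphatase ALPL at -4.60 and the glypican GPC4 at -2.49, and 4 were lower in SZ than in DZ, CD24, ALPL, GPC1 and GPC4. Of all probesets, 0.612% and 1.72% were called lower in these comparisons. Both ALPL calls were kept in 11 of 11 alternative settings, and the GPC4 calls in 5 of 10 for MZ and 6 of 10 for SZ. The CD24 call was kept in 6 of 11 and the GPC1 call in 9 of 11.

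DPYSL2 (CRMP2), of the same family as DPYSL3, had another zone pattern. It read 8.78 and 9.22 in MZ, 10.02 and 9.97 in SZ, and 9.10 and 8.99 in DZ, so MZ and DZ overlapped and SZ was highest. No DPYSL2 contrast was called (adjusted p 0.13 to 0.98), and its 2 dimmer probesets also put SZ highest. Among 14 measured genes of the CRMP and semaphorin list, PLXND1, a semaphorin receptor, was lower in SZ than in DZ (-1.81, kept in 5 of 11 alternative settings). In the MZ comparisons 0 were called by limma (0.0416% of all probesets were against SZ and 0.704% against DZ). An unadjusted p under 0.05 was found for 4 against SZ and 3 against DZ, beside 8.84% and 9.93% of all probesets. Between SZ and DZ it was found for 4, beside 17.6%, and 1.72% of all probesets were called lower in SZ. The neuropilins read lowest in MZ and were not called in the main model, though MZ minus DZ was called in 5 of 10 alternative settings for NRP1 and in 4 of 11 for NRP2. NRP1 read 2.14 and 2.12 in MZ, 5.43 and 4.06 in SZ, and 5.44 and 6.94 in DZ (adjusted p = 0.26 against SZ and 0.06 against DZ). NRP2 read 4.70 and 3.99 in MZ, 6.62 and 5.27 in SZ, and 6.46 and 6.44 in DZ.

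Around MYO10, the filopodial bundling protein FSCN1 (fascin) read 4.09 and 4.21 in MZ, 4.49 and 4.34 in SZ, and 4.53 and 4.54 in DZ, a gap of 0.12. Of 18 measured genes of the filopodia and protrusion list, 0 were called by limma in either MZ comparison (0.0416% and 0.704% of all probesets were). An unadjusted p under 0.05 was found for 3 against SZ and 6 against DZ, beside 8.84% and 9.93% of all probesets. Between SZ and DZ it was found for 5, beside 17.6%. Of all probesets, 1.03% were called higher and 1.72% lower in SZ than in DZ. For SZ minus DZ, EPS8, a capping and bundling protein, was higher (1.78, kept in 7 of 11 alternative settings) and ENAH, a promoter of actin filament growth, lower (-1.58, kept in 4 of 11).

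PTPRZ1, the nearest relative of PTPRG among receptor phosphatases, read 2.18 to 2.50 on 5 of 6 arrays and 5.63 on the DZ array of bov4. Of 15 measured receptor phosphatases, the leukocyte gene PTPRC was called, lower in MZ and SZ than in DZ by values of -2.75 and -2.66, and no other. Of all probesets, 0.612% and 1.72% were called lower in these comparisons. In the dCHIP matrix neither PTPRC call was kept (adjusted p = 0.318 and 0.134). All MZ and SZ values of PTPRC lay under the lower quartile, so the sizes of its differences are uncertain. Its dimmer probesets gave -1.05, -0.61 and 0.09 for MZ minus DZ, and -0.95, -0.51 and 0.04 for SZ minus DZ. Around THBD, the protein C receptor PROCR read 5.49 and 6.16 in MZ, 5.59 and 6.96 in SZ, and 5.03 and 5.79 in DZ. Within each animal its order was SZ, MZ, DZ from high to low, and no zone comparison was called, with SZ minus DZ at 0.87 (SE 0.27, limma adjusted p = 0.175). Protein C itself (PROC) read 3.26 to 3.67 on all arrays and the thrombin receptor F2R 2.77 to 4.45. Of 19 measured genes of the thrombin and protein C list 0 were called by limma in the MZ comparisons (0.0416% and 0.704% of all probesets were). An unadjusted p under 0.05 was found for 3 against SZ and 5 against DZ, beside 8.84% and 9.93% of all probesets. Between SZ and DZ it was found for 10, beside 17.6%, and 1 of the 19 was called. CLEC14A, an endothelial relative of thrombomodulin in the same lectin family, was lower in SZ than in DZ at -3.06, a call kept in 7 of 10 alternative settings.

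Of 27 adhesion and motility receptors, 0 were called between MZ and SZ by limma, against 0.0416% of all probesets. An unadjusted p under 0.05 was found for 8 in that comparison, 11 for MZ minus DZ and 17 for SZ minus DZ. Over all probesets the shares were 8.84%, 9.93% and 17.6%. Called lower in MZ than in DZ were 5, against 0.612% of all probesets. They were N-cadherin (CDH2, -4.65), CD44 (-4.35), MCAM (-3.41) and the integrins ITGB3 (-2.34) and ITGA2 (-1.85). CDH2, CD44 and ITGB3 lay under the lower quartile on both MZ arrays, so the sizes of their differences are uncertain. ITGB3 lay under it on both SZ arrays as well, and CDH2 on the SZ array of bov4. The same 5 were lower in SZ than in DZ, against 1.72% of all probesets. These SZ minus DZ calls were kept in 8 of 10 alternative settings for CDH2, 10 of 11 for MCAM, 7 of 10 for ITGB3 and 3 of 10 for ITGA2. CD44 read 2.52 and 2.24 in MZ, 4.35 and 3.87 in SZ, and 6.83 and 6.62 in DZ, and both of its calls were kept in 10 of 10 alternative settings. For the other 4 receptors the MZ minus DZ call was lost without the MZ array of bov1 and without that of bov4. The dimmer ITGA2 probeset did not bear out its calls, with -0.36 for MZ minus DZ and 0.07 for SZ minus DZ. The dimmer ITGB3 probesets gave -2.57 and -0.61 for MZ minus DZ, and -2.32 and -0.37 for SZ minus DZ.

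**Figure D4:**
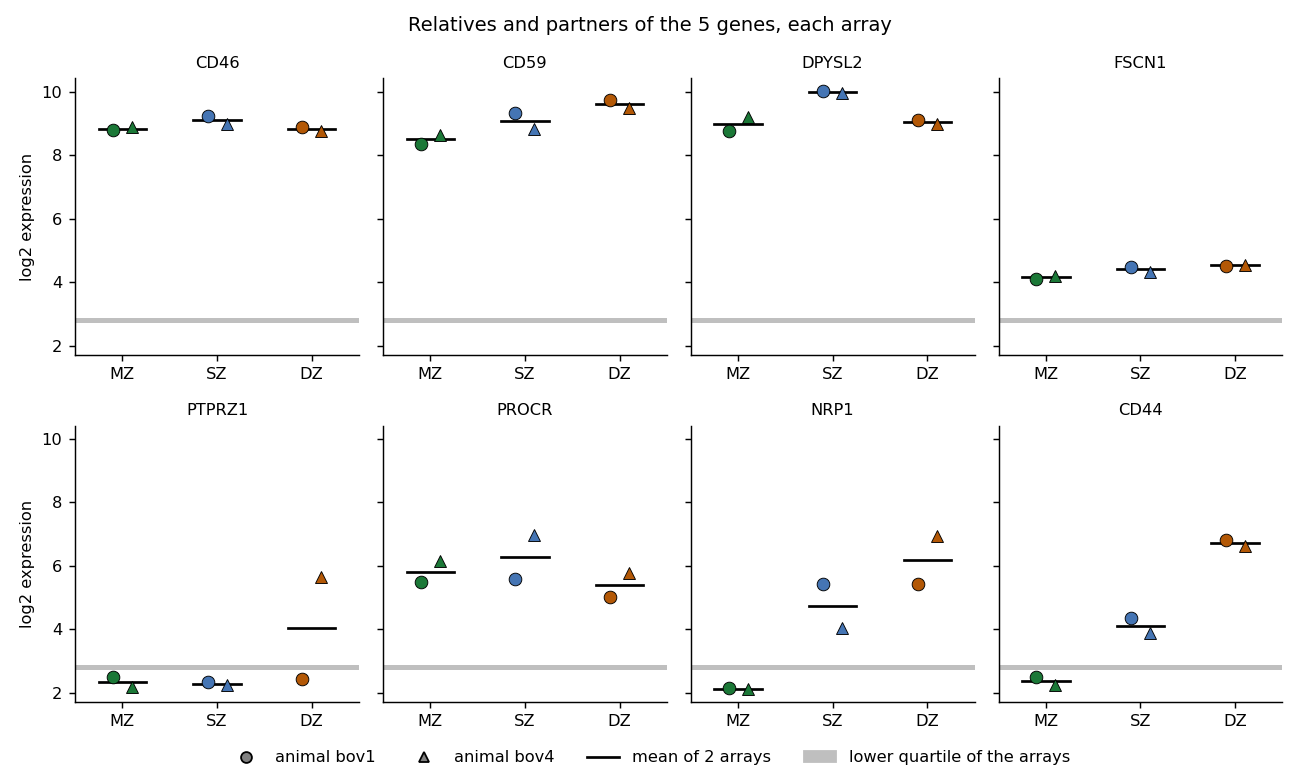
Log2 expression of 8 relatives and partners of the 5 genes on each array by zone; symbols as in the plot of the 5 genes, grey band the arrays' lower quartiles. PROCR is highest in SZ and lowest in DZ within each animal, DPYSL2 is highest in SZ, PTPRZ1 rises above the band on 1 DZ array, and NRP1 and CD44 are lowest in MZ.

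Markers of other cell types moved with zone beside these values. Endothelial cells carry THBD in human and mouse, and the mean log2 of 13 endothelial markers was 3.40 and 3.35 on the MZ arrays, 3.53 and 3.50 on the SZ arrays, and 4.70 and 5.88 on the DZ arrays. The markers differed on the SZ arrays, where THBD read 5.16 and 5.08. KDR (1.86 and 1.77) was under the lower quartile and PECAM1 (2.81 and 2.94) close to it. TEK read well above it, at up to 5.70, as did ENG (6.96 and 6.80), EGFL7 (4.92 and 4.29) and CLDN5 (3.99 and 3.96). Both MZ arrays were lowest for TIE1, CLDN5 and ESAM, by gaps of 0.41, 0.20 and 0.06, and for no other marker of this list. Of the 13 markers, 4 and 3 read more than 1 log2 unit above the lower quartile in MZ, 5 and 4 in SZ, and 10 and 13 in DZ. In DZ, 3 endothelial markers (KDR, PECAM1 and TEK) were called above SZ and 2 (KDR and TEK) above MZ, against 1.72% and 0.612% of all probesets called higher in DZ. The SZ comparison kept these calls in 10 of 10 alternative settings for KDR, 7 of 10 for PECAM1 and 6 of 11 for TEK, and the MZ comparison in 8 of 10 for KDR and 6 of 11 for TEK. The PECAM1 probesets disagreed, as its dimmer ones gave SZ minus DZ values of -0.79 and 0.40. The dimmer KDR probesets gave -3.65, -3.51 and -2.67. The part of endothelial cells in the SZ and DZ values of THBD was not tested. The 13 macrophage and leukocyte markers averaged 3.18 and 3.19 in MZ, 3.30 and 3.20 in SZ, and 4.98 and 4.71 in DZ. The 5 osteoclast markers averaged 3.94 and 3.74, 4.26 and 3.98, and 7.40 and 6.29 in the same order of zones. The 5 osteoblast markers averaged 4.95 and 5.78 in MZ, 7.27 and 5.51 in SZ, and 11.13 and 11.59 in DZ.

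Synovial lining cells carry CD55 in human joints. The mean of 10 synovial lining and fibroblast markers was 6.78 and 7.21 in MZ, 6.98 and 7.24 in SZ, and 6.46 and 7.04 in DZ, and its members went opposite ways. PRG4 (lubricin), which superficial chondrocytes also make, read 9.63 and 12.11 in MZ, 13.37 and 13.53 in SZ, and 4.28 and 6.82 in DZ. Its SZ minus DZ value of 7.90 was called by limma and kept in 11 of 11 alternative settings, its MZ minus DZ value of 5.32 was called and kept in 6 of 11, and its MZ minus SZ value of -2.58 was not called (adjusted p = 0.245). PDPN, CADM1 and DNASE1L3 were lower in SZ than in DZ, at -1.51, -3.12 and -2.93, calls kept in 4 of 11, 4 of 11 and 7 of 10 alternative settings. DNASE1L3 was also lower in MZ than in DZ (-3.09, kept in 6 of 10). Chondrocyte markers (12 measured) averaged 10.61 and 10.12 in MZ, 10.09 and 9.41 in SZ, and 10.55 and 10.33 in DZ, so MZ was not lower in them than both outer zones. The 8 smooth muscle and pericyte markers averaged 3.12 and 2.98 in MZ, 3.11 and 3.01 in SZ, and 3.77 and 3.95 in DZ, and the 8 nerve and Schwann cell markers 5.41 and 5.78, 5.36 and 5.39, and 4.90 and 5.44. Between MZ and SZ 0 genes of these 8 lists were called by limma, where 0.0416% of all probesets were. Of the 74 genes, 10 had an unadjusted limma p under 0.05, against 8.84% of all probesets. The part of these cell types in the values of the 5 genes was not tested.

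**Figure D5:**
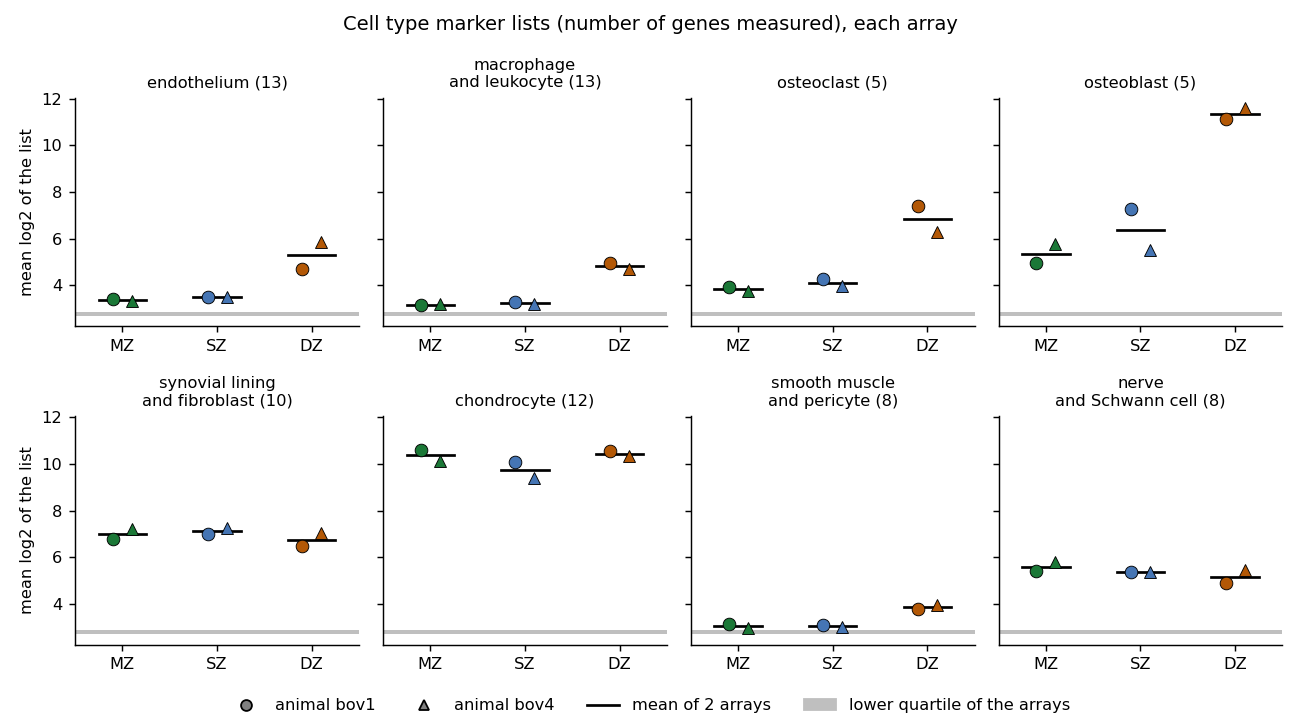
Mean log2 expression of 8 cell type marker lists on each array by zone, with the number of genes measured in brackets; symbols as in the plot of the 5 genes. Endothelial, leukocyte, osteoclast and osteoblast lists are highest in DZ. Both MZ arrays lie below all outer arrays for the endothelial, leukocyte and osteoclast lists, by less than 1 log2 unit. No list has both MZ arrays 1 log2 unit below all outer arrays.

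RNA and array measures were set beside the MZ values as well. The cyclophilin 3' minus 5' value, which grows as RNA or its amplified product shortens, was 2.23 and 2.66 in MZ, 2.24 and 1.69 in SZ, and 3.30 and 2.54 in DZ. MZ was not outside both other zones. The GAPDH 3' minus 5' value was 0.92 and 0.30 in MZ, -0.09 and 0.05 in SZ, and 0.45 and 0.26 in DZ, so both MZ arrays were above both SZ arrays and overlapped with DZ. The actin value ran from -1.16 to -0.65 and the EF1A value from -4.82 to -3.24, below 0 on every array. The eIF4E value ran from 2.08 to 3.02. On each of these MZ overlapped with both outer zones. The median of 27 control probesets for Bacillus transcripts was 4.90 and 4.17 in MZ, 5.88 and 6.24 in SZ, and 3.61 and 3.57 in DZ, so MZ lay between the outer zones there. The part of these measures in the zone differences was not tested. By the RefSeq gene table (assembly ARS-UCD2.0) the 5 genes lie on 5 different chromosomes, so none neighbours another.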

How the data were processed

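RNA of 3 cartilage zones of 2 cattle was measured on 6 Affymetrix bovine arrays. The authors deposited log2 values per probeset in 2 tables. Per the submitters' processing notes RMA was used, with no version. The name of the second table carries dCHIP, and its header does not name a method. Background method, chip definition and genome build are not given in the sources used here, so no coordinates or sequences are given. Arrays were grouped by the labels' titles.

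Control probesets (112) were left out and 24016 tested, without further normalisation. Symbols came from the dCHIP matrix, 961 of them updated through RefSeq synonyms, and 6877 probesets had none. The brightest probeset by mean log2 stood for a gene. Limma 3.58.1 in R 4.3.3 fitted zone with animal as a block (residual degrees of freedom 2, prior 4.15). P-values are two-sided, Benjamini-Hochberg adjusted over all 24016 probesets, and the few arrays limit the precision. The block rests on the labels, which give both animals for each zone. As a check, the animal difference correlated between zones with r of 0.259 (MZ and SZ), 0.346 (MZ and DZ) and 0.216 (SZ and DZ) across probesets.

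Folds are given only where both MZ arrays read more than 1 log2 unit above their lower quartile. The members and lists were chosen with earlier results of these data known. Genes most like the members were named as the 10 widest gaps of at least 1 and the 3 highest Pearson r for each member among genes spanning 2 log2 units. List genes were named where called, up to 4 for each list and comparison, with CD46, CD59, DPYSL2, PTPRZ1, PROCR and FSCN1 fixed. Marker lists are given as levels, with few of their called genes named. PROC, F2R, ADGRE5 and NRP2 were named after their values were seen. Some genes that these rules chose are not reported here. The fit was tested on simulated arrays with known shifts.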

Additional observations from a re-analysis of the deposited data

Results flagged for a closer look

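Some results were picked out because the 2 animals moved in opposite directions under the same contrast, with 1 array each per zone, so that these differences between animals were not tested. For PTPRG on its brighter probeset, SZ minus DZ was 0.15 in bov1 and -0.92 in bov4, while the dimmer probeset gave -0.99 and -0.72. For PTPRZ1, MZ minus DZ was 0.0627 in bov1 and -3.45 in bov4, as the DZ array of bov4 read 5.63 and that of bov1 2.44. The dimmer PTPRZ1 probeset read 2.46 and 2.05 on those arrays and did not show it. MZ minus SZ of PTPRZ1 was 0.165 in bov1 and -0.0663 in bov4. CD46 had MZ minus DZ values of -0.0862 in bov1 and 0.127 in bov4. DPYSL2 had -0.32 and 0.23 for the same contrast.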

How the results depend on the processing

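The MZ minus SZ and MZ minus DZ values of the 5 genes stayed below 0 in all 10 to 12 alternatives that gave a value, which the choice of genes favours. On its brighter probeset PTPRG ranged from -2.38 to -1.31 for MZ minus SZ and from -2.95 to -1.97 for MZ minus DZ. Its dimmer probeset, counted as 1 of the alternatives, gave -0.84 and -1.69. CD55 ranged from -2.67 to -1.16 for MZ minus DZ. In the dCHIP matrix 3 of 5 genes kept a gap of 1. That check and the same after quantile normalisation, where 5 kept it, were chosen after seeing the data. None of the 5 was called for SZ minus DZ in any alternative that gave a value (lowest limma adjusted p = 0.0549, CD55 without the DZ array of bov1) or between animals (lowest 0.167). SZ minus DZ of PTPRG turned to 0.11 without DZ replicate 2, in a range from -0.87 over the arrays left out. The animal difference changed sign for CD55 (0.00188 after quantile normalisation, and -0.41 to 0.43 with 1 array left out), PTPRG (-0.36 to 0.17, with 0.08 without an MZ array) and THBD (-0.12 to 0.29). Counts over all probesets moved more. Without the replicate block 3, 62 and 295 probesets were called for MZ minus SZ, MZ minus DZ and SZ minus DZ, against 10, 169 and 660. The dCHIP matrix gave 135, 259 and 1262, and 26 between animals against 11. Probesets above the median level gave 180 for MZ minus SZ and 46 between animals, and left out CD55 and THBD, which were too dim. A trended robust prior gave 100, 272 and 23 for MZ minus SZ, MZ minus DZ and the animals. With 1 array left out the counts ran from 0 to 31 for MZ minus SZ, 12 to 258 for MZ minus DZ, 204 to 646 for SZ minus DZ and 6 to 9 between animals. No MZ minus SZ call was left without any 1 MZ or SZ array. MZ minus DZ had 46 and 12 calls without MZ replicates 1 and 2 and 74 without DZ replicate 2, and SZ minus DZ had 248 without SZ replicate 1 and 337 and 204 without DZ replicates 1 and 2. A zone left with 1 array is assumed to vary like the others. The cause of these moves was not tested. Low values of CD55, THBD and DPYSL3 in MZ limit the size of their differences.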

Other observations

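PLAT, the tissue plasminogen activator of the thrombin and protein C list, also read lowest in MZ, at 2.61 and 3.28, against 5.13 and 7.37 in SZ and 4.01 and 4.88 in DZ. It was named after its values were seen and was not called in the main model, with limma adjusted p of 0.06 against SZ, called in 3 of 11 alternative settings, and 0.28 against DZ, called in 0 of 11. ARPC2, a subunit of the Arp2/3 complex that nucleates branched actin, read 8.81 and 8.90 in MZ, 9.74 and 9.65 in SZ, and 9.84 and 9.53 in DZ, and was not called (adjusted p = 0.34 and 0.31). It too was named after its values were seen.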
